A study of Mus musculus with 6 samples.

Results

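Retinoic acid is made, handled and read out by a small set of genes, and 9 of them are described here in whole testes of 2 mouse genotypes. They are Rdh10, Aldh1a1 and Aldh1a2, which make the acid, Dhrs3, which draws its precursor away, Cyp26a1 and Cyp26b1, which degrade it, Crabp1, which binds it in the cytoplasm, and the receptor genes Rara and Rarg. Members were taken by symbol. A probe set, the group of probes that reads one transcript on an Affymetrix array, belonged to them if the platform annotation gave it 1 gene symbol and that symbol was one of the 9. This found 11 probe sets among the 45037 tested, 2 each for Rdh10 and Rarg and 1 for every other member, out of 18193 genes with a symbol of their own.

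Testis RNA came from 12-week-old mice, with 3 arrays for each genotype. The jsd (juvenile spermatogonial depletion) mice carry the Utp14b mutation, which leaves adult tubules with Sertoli cells and spermatogonia and few later germ cells. The SCARKO-jsd mice carry that mutation too and, in addition, a conditional knockout in Sertoli cells, so the jsd mutation is shared by every array and no array comes from a testis with full spermatogenesis. The Cre line behind the knockout is not named in the labels, and the labels spell this genotype SCARKO-jsd, SCARCO-jsd and SCARO-jsd in different fields. Values are given on the log2 scale for each probe set, and a positive difference means a higher level in SCARKO-jsd testes. Where 3 values follow each other, they belong to arrays 1, 2 and 3 of the group in that order.

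In the testis, retinol taken up from blood is oxidised in a reversible step to retinal and then, irreversibly, to all-trans retinoic acid. The acid binds nuclear receptors that sit on DNA as pairs of a retinoic acid receptor and a retinoid X receptor, and it is needed for spermatogonia to differentiate and for germ cells to enter meiosis. Enzymes of the Cyp26 family clear the acid and so keep its level local, and binding proteins carry it through the cytoplasm. Sertoli cells, germ cells, peritubular cells and Leydig cells each hold part of this machinery, and whole-testis RNA mixes them. In such RNA, fewer cells of a type and less RNA per cell cannot be told apart.

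The arrays differed in ways that touch several members. The 3' probe sets of the beta-actin control exceeded the 5' ones by 1.66 log2 units in SCARKO-jsd 2 and by 0.70 to 0.98 in the other 5 arrays, and for Gapdh the gap was 0.64 against -0.28 to -0.10. SCARKO-jsd 2 also had the lowest correlations with the other arrays across probe sets (0.965 to 0.975, where probe sets are not independent replicates) and a median of 6.26 over all probe sets, against 6.40 to 6.41 in the other 5 arrays. Of the markers for Sertoli, Leydig, peritubular and macrophage cells, 0 lay in the lowest 40% of probe sets (mean log2 expression up to 5.69, called dim here), while 6 of 7 spermatid markers and 6 of 8 spermatocyte markers did. Rhox5, an androgen-dependent Sertoli cell gene, fell by 4.35 on the log2 scale, from a mean of 10.14 ± 0.36 to one of 5.80 ± 0.34 (SD, n = 3; limma, Benjamini-Hochberg adjusted p = 0.00563). Its call ended without jsd 1 (adjusted p = 0.0621) or jsd 2 (0.0687). Tsx (-1.54) of the Sertoli list and Alas2 (-1.21) of the red blood cell list fell and the spermatocyte gene Sycp3 rose (1.31). Over all probe sets each of these calls was lost when any single jsd array or SCARKO-jsd 3 was left out. Those of Alas2 and Sycp3 were also lost when SCARKO-jsd 1 was (with adjusted p-values of at most 0.181 by limma). With 1 probe set per gene and the dimmest 40% of genes left out, leaving out any 1 array ended none of these calls. The highest adjusted p there was 0.0211, for Sycp3 (limma, Benjamini-Hochberg). Rhox5 kept its call there too, with an adjusted p of at most 0.00346 by limma.

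None of the 11 probe sets passed the test over all probe sets, with all arrays or with any 1 array left out. The members' differences ran from -0.38 for Cyp26a1 to 1.13 for Crabp1. With limma and a threshold of 0.05 on the Benjamini-Hochberg adjusted p, 126 of all 45037 probe sets were called, which is 0.28% of them (56 higher, 70 lower, or 35 higher and 28 lower with median centring). At an unadjusted p under 0.05 there were 3 of the 9 genes by their brightest probe set, Crabp1, Rara and Dhrs3, against 13.2% of all genes. The median difference of the 9 genes was -0.07, and that of all genes was 0.04. Tested one probe set per gene with the dimmest 40% of genes left out, 0 of the 8 members that remained were called, where 390 of 10916 genes (3.57%) were. With arrays weighted by arrayWeights, 4 of the 11 probe sets were called, but 19.7% of all probe sets were called there too. At an adjusted p that misses the threshold a difference is not shown to be absent, so each member is given below with its 95% interval.

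**Figure D1:**
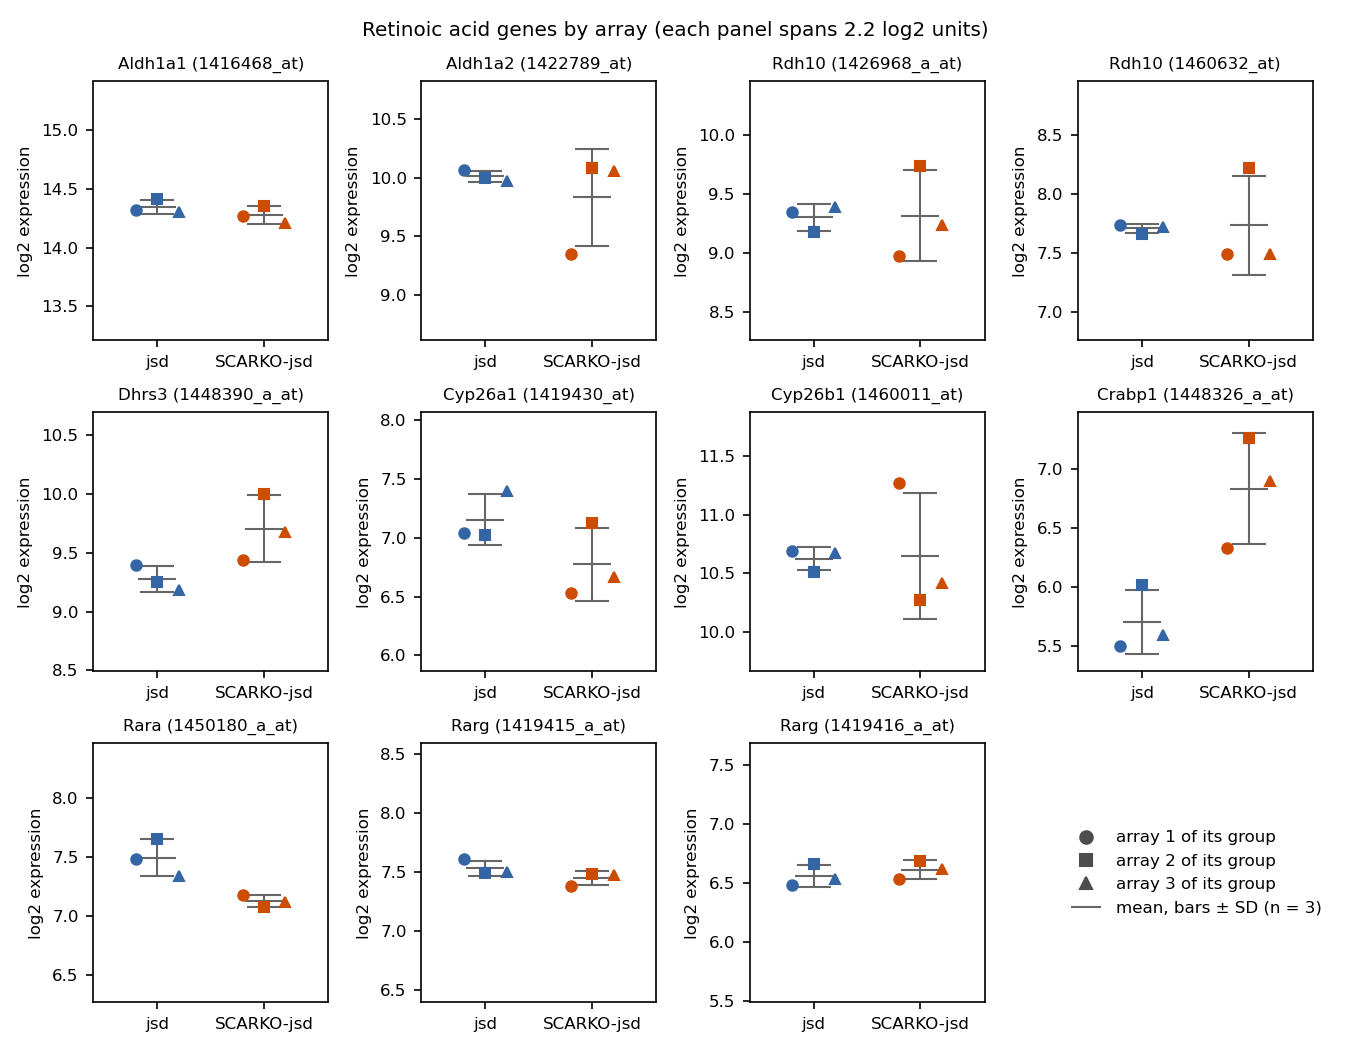
Log2 expression (vertical axis, a window of equal height in each panel) of the 11 probe sets in 3 jsd (blue) and 3 SCARKO-jsd arrays (orange), with the group mean and SD; the marker shape gives the array number. Crabp1 and Dhrs3 are higher and Rara lower in every SCARKO-jsd array than in every jsd array, and the SCARKO-jsd arrays of Aldh1a2, Rdh10 and Cyp26b1 are spread more widely than the jsd arrays.

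Rdh10, the retinol dehydrogenase that performs the first oxidation, to retinal, gave no shared shift between the genotypes. Its brighter probe set (1426968_a_at) read 9.35, 9.18 and 9.39 in jsd testes and 8.98, 9.74 and 9.24 in SCARKO-jsd testes. The other (1460632_at) read 7.74, 7.67 and 7.72 in jsd testes and 7.49, 8.22 and 7.49 in SCARKO-jsd testes. On both probe sets SCARKO-jsd 2 was the highest of the 6 arrays and SCARKO-jsd 1 the lowest, level with SCARKO-jsd 3 on the dimmer one, so the groups overlapped. The differences were 0.01 ± 0.20 (SE, 95% interval -0.46 to 0.49) and 0.03 ± 0.20 (-0.46 to 0.52), and without SCARKO-jsd 2, the array with the widest 3' to 5' gap, they were -0.19 and -0.22. The part of that gap in these values was not tested.

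Aldh1a1, a retinal dehydrogenase that makes the acid, was among the brightest probe sets of the arrays, with 99.97% of probe sets below its mean. It read 14.32, 14.41 and 14.30 in jsd testes and 14.27, 14.36 and 14.21 in SCARKO-jsd testes. All 6 arrays lay close together and the groups overlapped. The difference was -0.07 ± 0.08 (SE, 95% interval -0.27 to 0.13), and from -0.105 to -0.031 with any 1 array left out. The top value of the whole table was 14.84, so this probe set worked near the upper end of the scale. Its close relative Aldh1a7, whose transcript is similar enough that probes can share signal, read 12.73 ± 0.10 (SD, n = 3) in jsd testes and 12.81 ± 0.15 in the others, so which of them the probes followed is uncertain.

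Aldh1a2, the retinal dehydrogenase known from germ cells of the adult testis, read 10.07, 10.00 and 9.98 in jsd testes. In SCARKO-jsd testes it read 9.35, 10.08 and 10.06. SCARKO-jsd 1 stood below the other 5 arrays, which lay between 9.98 and 10.08, and the groups overlapped. The difference of -0.18 ± 0.20 (SE, 95% interval -0.67 to 0.30) turned to 0.06 without SCARKO-jsd 1.

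Dhrs3, which reduces retinal back to retinol and which retinoic acid itself induces, read 9.39, 9.25 and 9.18 in jsd testes and 9.44, 10.001 and 9.67 in SCARKO-jsd testes. The groups did not overlap, though SCARKO-jsd 1 lay just above jsd 1, and SCARKO-jsd 2 was the highest. The difference was 0.43 ± 0.15 (SE, 95% interval 0.06 to 0.80), 1.35-fold, with an adjusted p = 0.405 by limma with Benjamini-Hochberg adjustment. It was 0.28 without SCARKO-jsd 2. Dhrs3 and Crabp1 were the 2 members of 9 with higher and non-overlapping SCARKO-jsd arrays, and 13.4% of all genes had such arrays.

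Cyp26a1 and Cyp26b1 encode cytochrome P450 enzymes that hydroxylate retinoic acid for removal. Cyp26a1 is itself a classic gene that the acid switches on, through paired receptor binding sites ahead of its start, and Rarb, a receptor gene outside the 9, is another. Their promoters are shown because, of the members and the listed genes that the acid induces, only these held the repeat described next. A search of the 250 bases before each RefSeq start site (GRCm38.p6) for a half-site AGGTCA or AGTTCA or GGGTCA or GGTTCA repeated in the same direction after 5 bases, on both strands, matched 29 of 32851 windows (0.0883%). These half-sites are variants of one hexamer, and no other motif was searched. Of the 9 members 8 had promoter entries (all but Rdh10), with 15 windows, and 1 window, that of Cyp26a1, held the repeat. Of the listed genes that the acid induces, 10 had entries, with 16 windows, and 2 windows, those of Cyp26a1 and Rarb, held it. The last 120 bases before the start follow, Cyp26a1 from chr19:37697688-37697807 on the plus strand and Rarb from chr14:16575477-16575596 on the minus strand, with the repeat in capitals.
Cyp26a1: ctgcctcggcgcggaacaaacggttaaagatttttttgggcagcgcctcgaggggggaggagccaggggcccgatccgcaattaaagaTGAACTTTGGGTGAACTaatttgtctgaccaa
Rarb: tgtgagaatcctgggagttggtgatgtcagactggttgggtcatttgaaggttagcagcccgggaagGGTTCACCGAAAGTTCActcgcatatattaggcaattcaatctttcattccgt
In Cyp26a1 the repeat lies 32 to 16 bases before the start and is read on the opposite strand, as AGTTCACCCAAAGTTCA. In Rarb it lies 53 to 37 bases before the start, on the gene's own strand. A match of letters is a description of the sequence and not a measured binding site.

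Cyp26a1 read 7.04, 7.03 and 7.40 in jsd testes and 6.53, 7.12 and 6.67 in SCARKO-jsd testes. SCARKO-jsd 1 and 3 lay below every jsd array, but SCARKO-jsd 2 lay between jsd 1 and jsd 3, so the groups overlapped. The difference was -0.38 ± 0.19 (SE, 95% interval -0.83 to 0.07) with an adjusted p = 0.559 (limma, Benjamini-Hochberg). Without SCARKO-jsd 2 it was -0.56 with an adjusted p = 0.124 over probe sets, and over genes with the dimmest left out the adjusted p = 0.0441 passed, where 7.04% of genes did. Over its alternatives the adjusted p lay between 0.0186 and 0.827.

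Rarb, the receptor gene with the same kind of repeat, differed the other way. It read 4.57, 4.83 and 4.75 in jsd testes and 5.34, 6.54 and 5.998 in SCARKO-jsd testes. Every SCARKO-jsd array lay above every jsd array. The jsd arrays and SCARKO-jsd 1 all lay under the dim limit, where the size of a difference is uncertain. Rarb was too dim for the test over brighter genes. The difference was 1.24 ± 0.29 (SE, 95% interval 0.55 to 1.93) and did not pass (limma, Benjamini-Hochberg adjusted p = 0.197, between 0.00183 and 0.625 over its alternatives). The difference between Rarb and Cyp26a1 was not tested.

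Cyp26b1, the other degrading enzyme, read 10.69, 10.51 and 10.68 in jsd testes and 11.27, 10.27 and 10.42 in SCARKO-jsd testes. SCARKO-jsd 1 was the highest of all arrays and SCARKO-jsd 2 and 3 were the lowest. The difference was 0.03 ± 0.26 (SE, 95% interval -0.59 to 0.64), and without SCARKO-jsd 1 it was -0.28. Array SCARKO-jsd 1 thus held the highest Cyp26b1, the lowest Aldh1a2 and, on the brighter probe set, the lowest Rdh10 value of the series.

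Crabp1, which encodes the cellular retinoic acid binding protein found in spermatogonia, had the largest difference of the members. It read 5.50, 6.01 and 5.60 in jsd testes and 6.34, 7.27 and 6.90 in SCARKO-jsd testes. Each SCARKO-jsd array lay above each jsd array, and the values within each group were spread over 0.52 and 0.93 log2 units. The difference of 1.13 ± 0.26 (SE, 95% interval 0.51 to 1.75), 2.19-fold, did not pass (limma, Benjamini-Hochberg adjusted p = 0.190, unadjusted p = 0.00379). Its adjusted p lay between 0.00338 and 0.620 over its alternatives, and the difference was 0.92 without SCARKO-jsd 2. Crabp1 was too dim for the test over brighter genes, and 2 of its jsd arrays were below the dim limit, which leaves its fold change uncertain.

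Markers of differentiating spermatogonia and of spermatocytes lay higher in the same arrays, and those of undifferentiated spermatogonia were mixed. Of 6 markers of differentiating spermatogonia, 5 had positive differences, as did 11229 of all 18193 genes. Kit was the exception (-0.03, and -0.51 on its other probe set). Their median was 0.52, and their mean log2 expression was 7.68 to 7.93 in jsd and 8.09 to 8.53 in SCARKO-jsd arrays. Of 8 spermatocyte markers all 8 had positive differences, as did 11229 of all 18193 genes, with a median of 0.47. Their list means were 5.27 to 5.51 against 5.70 to 6.12, and 6 of the 8 were dim, which leaves the size of the difference uncertain. Of the 8 markers, 4 had higher and non-overlapping SCARKO-jsd arrays, against 13.4% of all genes, and only Sycp3 passed. The 9 markers of undifferentiated spermatogonia had 5 positive and 4 negative differences and overlapping list means (8.21 to 8.41 and 8.31 to 8.51). Higher and non-overlapping SCARKO-jsd arrays were found for 5, Lin28a (0.86), Uchl1 (0.68), Gfra1 (0.59), Foxo1 (0.28) and Pou5f1 (0.23), against 13.4% of all genes. Lower and non-overlapping ones were found for 2, Id4 (-1.17) and Etv5 (-0.43), against 7.08% of all genes. Those genes were named after their values were seen. The part of these lists in the values of Crabp1, Rarb and Stra8 was not tested. The list means of Sertoli and red blood cell markers also lay apart, with large differences in few genes. The 15 Sertoli markers had list means of 10.77 to 10.97 in jsd and 10.35 to 10.60 in SCARKO-jsd arrays, with a median difference of -0.13. Of their differences 10 were negative and 5 positive. Lower and non-overlapping SCARKO-jsd arrays were found for 4, Rhox5 (-4.35), Tsx (-1.54), Wt1 (-0.48) and Gata1 (-0.27), against 7.08% of all genes. Higher and non-overlapping ones were found for 2, Amh (0.33) and Inha (0.33), against 13.4% of all genes. The 4 red blood cell markers had list means of 5.66 to 5.73 and 5.38 to 5.47, with a median of -0.01. Of these, Alas2 differed by -1.21. Hba-a1 (0.05), Slc4a1 (0.11) and Epb42 (-0.08) were dim and their arrays overlapped. The 6 markers of epididymis and rete had list means of 4.58 to 4.64 and 4.68 to 4.88. The 6 Leydig markers had a median difference of 0.01 and the 6 peritubular markers of -0.004, and their list means overlapped.

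**Figure D2:**
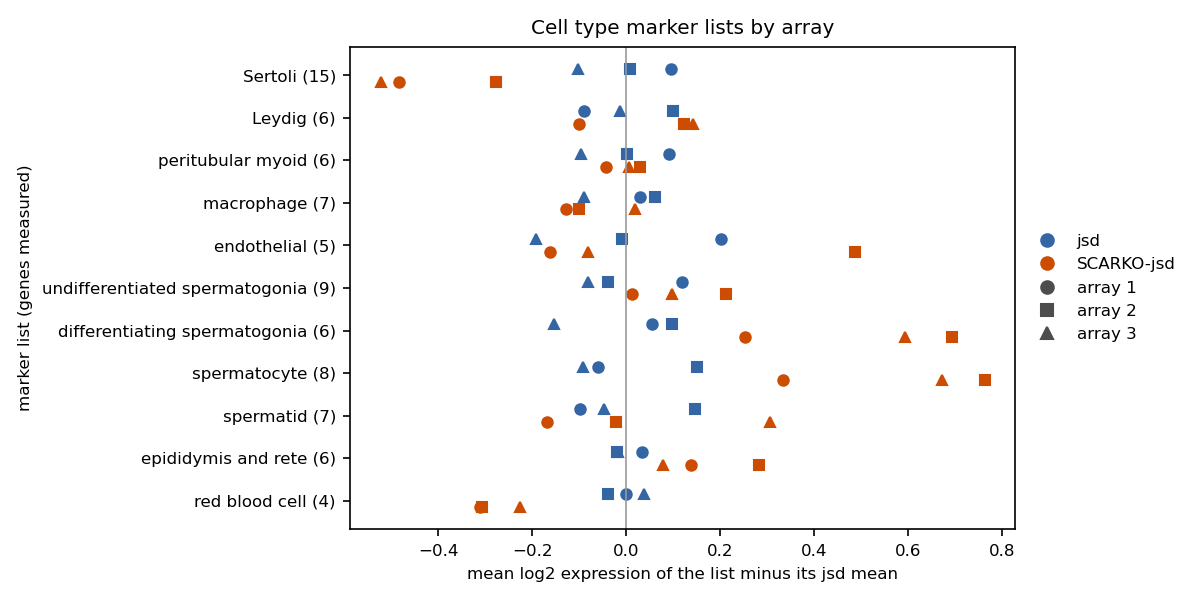
Mean log2 expression of each cell type marker list (rows, with the number of genes measured) in each array, minus the list's jsd mean (horizontal axis); blue is jsd, orange SCARKO-jsd and the shape is the array number. The lists of differentiating spermatogonia and spermatocytes lie higher in each SCARKO-jsd array (at least 8.09 and 5.70) than in each jsd array (at most 7.93 and 5.51), and the Leydig and peritubular lists overlap between the genotypes.

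The genes whose 6 values tracked those of Crabp1 most closely were Hirip3, Tcfl5 and Txnrd1, with Pearson r of 0.995, 0.994 and 0.993 over the 6 arrays. They were the top of 10908 genes searched, of which 742 had an r over 0.9, and 6 arrays in 2 groups make high values common. Tcfl5, a transcription factor of germ cells, differed by 1.01 ± 0.24 (SE), Txnrd1, a thioredoxin reductase, by 0.38 ± 0.11 and Hirip3 by 0.34 ± 0.10, and none of these passed (limma, Benjamini-Hochberg adjusted p of 0.205, 0.295 and 0.309). The mean of the Txnrd1 probe sets differed by -0.01.

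Rara, the alpha receptor, known from Sertoli cells and germ cells, read 7.48, 7.66 and 7.34 in jsd testes and 7.18, 7.08 and 7.12 in SCARKO-jsd testes. All SCARKO-jsd arrays lay below all jsd arrays and close to each other. The difference was -0.37 ± 0.10 (SE, 95% interval -0.62 to -0.12), 1.29-fold lower, with an adjusted p = 0.273 (limma, Benjamini-Hochberg; between 0.0105 and 0.694 over its alternatives). With any 1 array left out the difference stayed between -0.45 and -0.29.

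Rarg, the gamma receptor, known from spermatogonia, had differences near 0 on both probe sets. The brighter (1419415_a_at) read 7.61, 7.49 and 7.50 in jsd and 7.38, 7.48 and 7.48 in SCARKO-jsd arrays, a difference of -0.09 ± 0.08 (SE, 95% interval -0.28 to 0.11). The dimmer (1419416_a_at) read 6.48, 6.66 and 6.53 in jsd and 6.53, 6.69 and 6.62 in SCARKO-jsd arrays, a difference of 0.06 ± 0.09 (-0.16 to 0.27). With any 1 array left out the differences ran from -0.107 to -0.048 and from 0.017 to 0.107. The arrays of the brighter probe set just failed to overlap and those of the dimmer one overlapped. By brightest probe set, Rara and Rarg were the 2 members of 9 with lower and non-overlapping SCARKO-jsd arrays, against 7.08% of all genes.

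**Figure D3:**
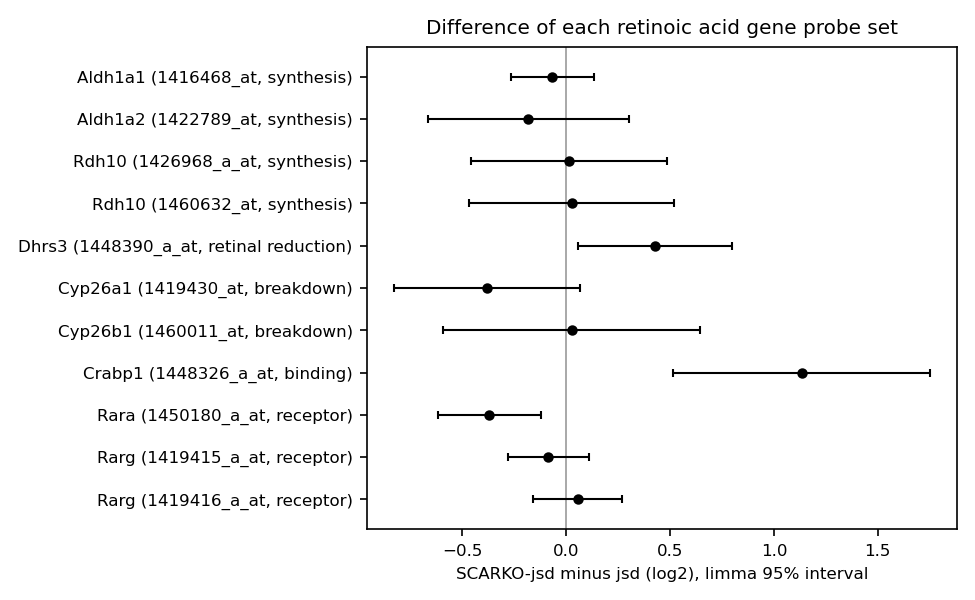
Difference of each member probe set, SCARKO-jsd minus jsd, in log2 units (points) with the limma 95% interval (bars, unadjusted, n = 3 arrays per group), ordered by role. The intervals of Crabp1 (0.51 to 1.75), Dhrs3 (0.06 to 0.80) and Rara (-0.62 to -0.12) leave out 0, and none of the 11 passed after adjustment.

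The rest of the pathway held 43 measured genes of 48 listed, and none of them passed over all probe sets, where 0.484% of genes did by their brightest probe set. At an unadjusted p under 0.05 there were 7 of the 43, of which 5 were higher and 2 lower, where 13.2% of all genes were (1558 higher and 839 lower), and the median difference was 0.05 against 0.04 for all genes. With 1 probe set per gene and the dimmest genes left out, Adh4 and Fabp5 passed among 27 tested, where 3.57% of genes did.

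Enzymes that interconvert retinol and retinal held 4 of those 7 genes. Adh4, an alcohol dehydrogenase that can oxidise retinol, read 6.91, 6.46 and 7.01 in jsd testes and 7.63, 8.12 and 7.68 in SCARKO-jsd testes. The groups stood well apart, and the difference was 1.02 ± 0.19 (SE), 2.02-fold, with an adjusted p (limma, Benjamini-Hochberg) of 0.129 over probe sets and 0.0289 over genes (0.00368 to 0.445 over its alternatives). Over genes its call held without SCARKO-jsd 1 or SCARKO-jsd 2 and ended without any other array. Adh1, the related enzyme that clears excess retinol, read 12.15, 12.000 and 11.71 in jsd and 12.37, 12.77 and 12.89 in SCARKO-jsd arrays. It did not overlap either and differed by 0.72 ± 0.17 (SE), with an adjusted p = 0.210 (limma, Benjamini-Hochberg) over probe sets. The retinol dehydrogenases Rdh9 and Rdh5 differed by 0.56 ± 0.19 and 0.38 ± 0.15 (SE), and the Rdh9 probe set is of a kind (_s_at) whose probes can match several related transcripts. Of 12 genes in this list 9 had positive differences, as did 11229 of all 18193 genes, with a median of 0.19, and 5 had higher and non-overlapping SCARKO-jsd arrays, against 13.4% of all genes. Markers of epididymis and rete, which are neighbouring tissues, were all 6 in the lowest 40% of probe sets, with the higher SCARKO-jsd list means given earlier, and their part in these values was not tested.

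The other enzymes that make the acid or related products lay close to 0 by their brightest probe sets. Aldh1a3, a retinal dehydrogenase, differed by -0.05 ± 0.12 (SE), with -0.30 and -0.17 on its other probe sets, Aldh1a7 by 0.08 ± 0.11 and Aldh1b1 by 0.07 ± 0.10. Aldh8a1, which acts on the 9-cis form of retinal, differed by 0.02 ± 0.10, with 0.23 on its other probe set, and both were dim. Among genes of uptake, transport and storage, 12 were measured, with a median of 0.04, and 6 of them were dim. Stra6, the membrane receptor that takes up retinol from its plasma carrier, differed by 0.40 ± 0.20 (0.24 without SCARKO-jsd 2 and 0.60 without SCARKO-jsd 1). Lpl, a lipase that frees lipids from lipoproteins, differed by 0.22 ± 0.16, with 0.19 on its other probe set. The difference lay between 0.066, with jsd 2 left out, and 0.33, with jsd 3 left out, and at 0.12 if SCARKO-jsd 1 was. Ttr, which carries that plasma complex, differed by -0.21 ± 0.10, with -0.37, -0.20 and 0.02 on its other probe sets, which were dim. Rpe65, a retinoid isomerase of the eye, differed by -0.11 ± 0.07.

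Fabp5, a fatty acid binding protein that also carries retinoic acid, lay lower in SCARKO-jsd testes on both of its probe sets. It read 12.69, 12.70 and 12.62 in jsd testes and 12.23, 12.21 and 12.28 in SCARKO-jsd testes. Both groups were tight and stood apart. The difference was -0.43 ± 0.08 (SE), with an adjusted p (limma, Benjamini-Hochberg) of 0.105 over probe sets and 0.0327 over genes (0.00368 to 0.469 over its alternatives), and its other probe set gave -0.59. Over genes its call held without SCARKO-jsd 2 and ended without any other array. Crabp2, the partner of Crabp1 that delivers the acid to receptors, was dim and differed by 0.05 ± 0.15, and Cyp2s1 by -0.06 ± 0.13. Among receptor partners and cofactors, the coactivator gene Ncoa2 differed by -0.56 ± 0.15 on its brightest probe set, with -1.26, -1.04 and -0.71 on the others, and did not pass (limma, Benjamini-Hochberg adjusted p = 0.254, and 0.00236 to 0.710 over its alternatives). Rxra, the retinoid X receptor alpha, differed by 0.21 ± 0.11 (0.13 without jsd 3), with 0.02 and 0.17 on its other probe sets, and the coactivator gene Ncoa1 by -0.18 ± 0.10 (-0.12 without jsd 1).

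**Figure D4:**
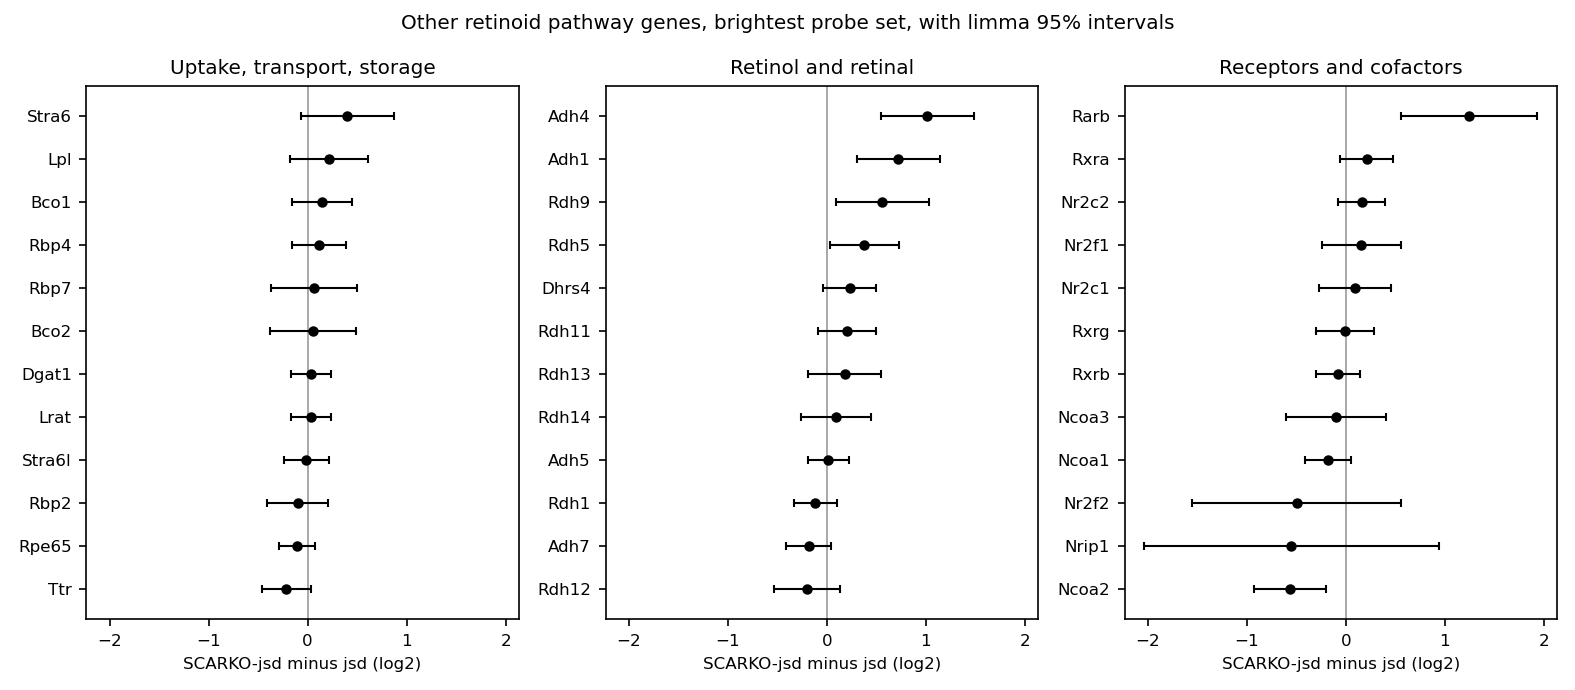
Differences of the other retinoid genes by their brightest probe set (points, log2 units, SCARKO-jsd minus jsd) with unadjusted limma 95% intervals, in panels for uptake, transport and storage, for retinol and retinal enzymes, and for receptors and cofactors. Adh4 (1.02), Adh1 (0.72) and Rarb (1.24) lie farthest to the right and Ncoa2 (-0.56) farthest to the left, and none passed over all probe sets.

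None of the measured genes that retinoic acid is known to induce was called over all probe sets. Most of their differences lay above 0, as did most of those of all genes. The list was chosen with earlier results of these data known. Of 16 listed, 14 were measured, 11 had positive differences, as did 11229 of all 18193 genes, and the median was 0.23 against 0.04 for all genes. At an unadjusted p under 0.05 there were 5 of the 14, all of them higher, where 13.2% of all genes were (1558 higher and 839 lower), and 4 had higher and non-overlapping SCARKO-jsd arrays, against 13.4% of all genes. Stra8, which the acid induces before meiosis, read 7.39, 7.54 and 7.14 in jsd testes and 7.91, 8.51 and 8.61 in SCARKO-jsd testes. It differed by 0.99 ± 0.21 (SE), with an adjusted p (limma, Benjamini-Hochberg) of 0.157 over probe sets and 0.0379 over genes (0.00234 to 0.544 over its alternatives). Over genes its call held without SCARKO-jsd 1 or SCARKO-jsd 2 and ended without any other array. Meioc, a meiotic gene, differed by 0.49 ± 0.19, and its probe set was dim in every array (3.42 to 4.41). Its difference was 0.29 without SCARKO-jsd 3 and 0.85 with arrayWeights. Kit, the receptor of differentiating spermatogonia, differed by -0.03, with -0.51 on its other probe set, and Tgm2, a transglutaminase induced by the acid in many cells, by 0.05, both chosen after their values were seen. By brightest probe set the list thus held Rarb and Stra8 at one end and Cyp26a1 at the other. It shares Stra8 and Kit with the markers of differentiating spermatogonia. Cyp26a1 and Dhrs3 are also members, and Rarb, Crabp2, Stra6 and Lrat are also in the rest of the pathway. The counts of these lists are therefore not independent.

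**Figure D5:**
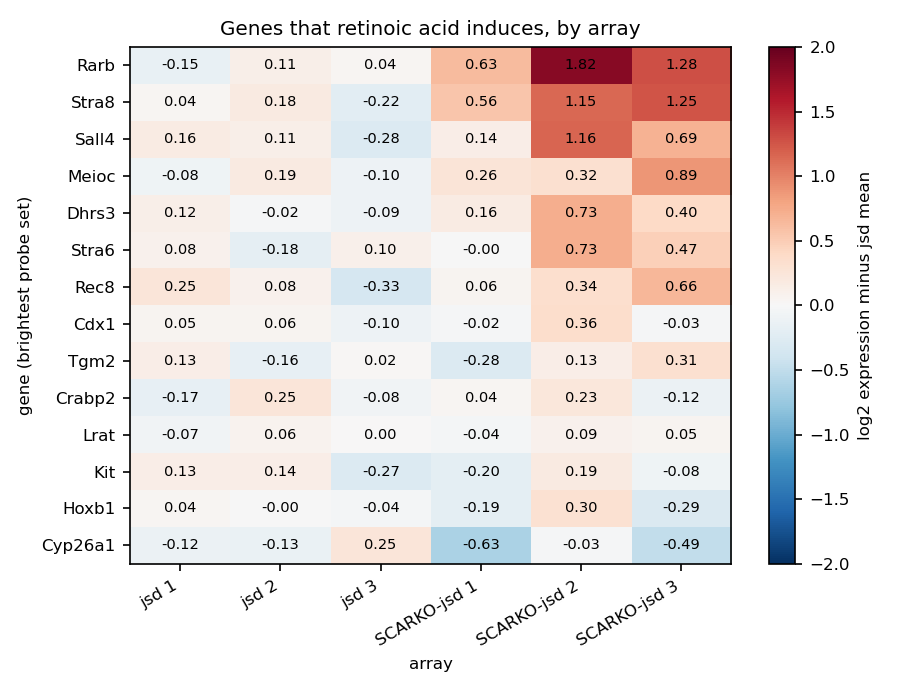
Log2 expression of the 14 measured genes that retinoic acid induces (rows, brightest probe set) in each array (columns), minus the gene's jsd mean; red is higher and blue lower, and each cell prints its value. Rarb and Stra8 are higher in all 3 SCARKO-jsd arrays than in any jsd array, and Cyp26a1 is lowest in SCARKO-jsd 1 (6.53 on the log2 scale) and SCARKO-jsd 3 (6.67).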

How the data were processed

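RNA of 6 testis samples was measured on Affymetrix arrays. Per the submitters' processing notes, the authors used affy and RMA, and the deposited values are log2 expression (tool versions not given in the sources used here). Such processing usually sets arrays to a shared distribution, but the deposited values do not fully share one (SCARKO-jsd 2 has a lower median), and levels of different probe sets are not comparable. Values ran from 2.58 to 14.84. Controls (64 probe sets) were left out, and symbols came from GEO's platform annotation, which gave several symbols to 932 probe sets.

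All 45037 probe sets were fitted with limma 3.58.1 in R 4.3.3 (lmFit, eBayes, two-sided), with genotype as the only term, no filter, and Benjamini-Hochberg adjustment over all of them at 0.05. "Over genes" means 1 fit on each gene's brightest probe set without the lowest 40% (log2 expression up to 6.64), 10916 genes. The fit was tested on data simulated with the spread within groups. It called 14.9% of 1.5-fold changes, 52.2% of 2-fold ones and 92.4% of 4-fold ones, so it misses many small differences. Named genes are all member probe sets, listed genes that were called, up to 4 of each pathway list by smallest p, and the 3 most like the member of smallest p. Members and lists were chosen with earlier results of these data known. Alternatives were a filter on dim probe sets, genes by brightest or by mean probe set, median centring, quantile normalization, trend and robust, arrayWeights, a replicate block and each array left out. Leaving out arrays in the gene fit and gene-by-gene array weights were added after seeing the data. The labels do not tie arrays to mice, so p-values measure the spread between samples, which may be technical. The number of arrays limits the precision. The gene knocked out in Sertoli cells is not reported here.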

Additional observations from a re-analysis of the deposited data

How the results depend on the processing

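Directions of the members are those of small differences in many cases, and 5 of the 11 member probe sets changed sign under at least 1 alternative. Without the mean of probe sets as an alternative, 4 of the 11 did. With each array left out, the differences ran from -0.31 to 0.057 for Aldh1a2, -0.19 to 0.19 and -0.22 to 0.15 for the brighter and dimmer probe set of Rdh10 and -0.28 to 0.22 for Cyp26b1. They ran from -0.015 to 0.12 for Aldh1b1, -0.012 to 0.125 for Aldh1a7, -0.17 to 0.015 for Aldh1a3, -0.056 to 0.093 for Aldh8a1, -0.19 to 0.032 for Cyp2s1 and -0.038 to 0.175 for Crabp2. Without jsd 2, Rdh10 was at -0.049 and Cyp26b1 at -0.030, and without SCARKO-jsd 1 Aldh1a3 was at 0.0042. With arrayWeights, Aldh1a2 was at 0.024, Rdh10 at -0.048 and -0.20, Cyp26b1 at -0.17, Aldh1b1 at -0.0097, Aldh1a7 at -0.026 and Crabp2 at -0.13. With gene-by-gene weights, Rdh10 was at -0.066 and -0.16, Cyp26b1 at -0.015, Aldh1a7 at -0.012 and Crabp2 at -0.081. With the mean of both its probe sets, which differ in sign, Rarg was at -0.015 and Txnrd1 at -0.014.

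The counts of called members, pathway genes and target genes, each 0 over all probe sets, were 4, 9 and 9 with arrayWeights, where 19.7% of all probe sets were called. That fit stopped before its tolerance and gave SCARKO-jsd 3 a weight of 15.6 against 0.16 for SCARKO-jsd 2. The 4 members were Crabp1, Rara, Dhrs3 and Cyp26a1. Gene-by-gene weights gave 1 (Crabp1), 5 and 2, where 2.82% were called. Over genes the pathway count was 2 and the target count 1, with the mean of probe sets they were 3 and 1, and with trend and robust the pathway count was 1. Over genes without SCARKO-jsd 1 they were 2 and 1, and without SCARKO-jsd 2 they were 1 member, 3 pathway and 2 target genes. With any other array left out over genes, and in the remaining alternatives, these counts were 0. The cause of these changes was not tested.

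With the replicate block, 0 members were called, as in the fit without it, and Crabp1 differed by 1.13 (adjusted p of 0.160 by limma with Benjamini-Hochberg adjustment). Rhox5 (adjusted p = 0.0583), Tsx, Sycp3 and Alas2 lost their calls, and 0 probe sets in all were called. Same-numbered arrays deviated from their group means with correlations of -0.27, 0.24 and 0.35. Only jsd 2 and SCARKO-jsd 3 correlated best with the array of their own number, so arrays were not taken as pairs.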
